A study of Mus musculus with 2 samples.

Results

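The interleukin-17 axis was followed through 8 of the 32285 genes measured in 4T1 mammary tumours of mice. They were the cytokines Il17a and Il17f, their receptor chains Il17ra and Il17rc, the IL-23 receptor gene Il23r, the IL-23 subunit gene Il23a, and the gamma-delta T cell genes Cd163l1 and Trdc. They had been picked because they differed between these libraries, so their levels and ratios are given as a description, without a test.

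4T1 is an established, highly metastatic tumour line from a BALB/c mammary gland. One group was tumours from 4T1 cells labelled WT that had received a control guide RNA (Ctrl sgRNA), and the other was tumours from 4T1 cells that had received a K2 guide RNA and are labelled K2-KO. K2 is Kindlin-2, an integrin activator encoded by Fermt2. Both kinds of cell were grown in the fat pads of female BALB/c hosts (spelled BLB/c in the labels), and whole tumours were dissociated, sorted and profiled as single cells by 3' droplet sequencing, with 1 library per group. The knockout lies in the injected cells, so the lymphocytes and myeloid cells described here are the host's. Mouse age, whether the line was 1 clone, how many tumours were pooled and which mCherry fraction of the sort was loaded are not given in the sources used here. Shares of cells can move with that fraction.

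IL-17A and IL-17F are secreted cytokines that act through a receptor made of the chains IL-17RA and IL-17RC. In mice much of the IL-17A in skin, mucosa and tumours comes from gamma-delta T cells, innate-like lymphocytes whose delta receptor chain has the constant region Trdc. IL-23, a pair of the Il23a product p19 with the Il12b product p40, sustains such cells through IL-23R. Cd163l1 encodes SCART1, a scavenger receptor found on IL-17-producing gamma-delta cells. Epithelial and stromal cells answer IL-17 with chemokines and growth factors that draw in and sustain neutrophils, and 4T1 tumours are known for neutrophil-rich immune infiltrates.

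On mm10 (GENCODE M21), Il17a lies on the plus strand at chr1:20730905-20734496 and Il17f on the minus strand of the same chromosome at chr1:20777146-20790617. Il23r (chr6:67422932-67491855, minus), Il17rc (chr6:113471427-113483140, plus) and Il17ra (chr6:120463247-120487559, plus) share chromosome 6. Il23a is at chr10:128296139-128298752 on the minus strand, Cd163l1 at chr7:140218267-140231145 on the plus strand and Trdc at chr14:54142851-54148868 on the plus strand. Trdc was the only member that overlapped other annotated genes, Gm43434 and Trdv5 on the opposite strand. Whether counting used strand is not given in the sources used here, so reads of these 3 genes cannot be told apart with certainty.

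The 250 bases upstream of the start site are shown for 4 of the members with their highest CPM in gamma-delta T cells (below), from RefSeq on GRCm38.p6. RefSeq entries were matched for 5 of the 8 members. Il17ra, Il23a and Trdc were not among them. Capitals mark AGGTCA on either strand, the half-site bound by many nuclear receptors. For Il17f the RefSeq start lies inside the longer GENCODE gene.
Il17a: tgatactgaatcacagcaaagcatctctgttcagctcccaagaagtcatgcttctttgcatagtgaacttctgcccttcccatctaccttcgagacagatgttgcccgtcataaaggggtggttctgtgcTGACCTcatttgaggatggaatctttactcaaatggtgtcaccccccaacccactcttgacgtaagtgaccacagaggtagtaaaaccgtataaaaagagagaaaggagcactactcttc
Il17f: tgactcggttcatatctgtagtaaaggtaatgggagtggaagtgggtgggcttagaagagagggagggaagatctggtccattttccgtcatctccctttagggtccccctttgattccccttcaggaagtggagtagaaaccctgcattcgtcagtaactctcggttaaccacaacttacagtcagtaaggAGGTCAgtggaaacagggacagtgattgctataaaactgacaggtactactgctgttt
Il23r: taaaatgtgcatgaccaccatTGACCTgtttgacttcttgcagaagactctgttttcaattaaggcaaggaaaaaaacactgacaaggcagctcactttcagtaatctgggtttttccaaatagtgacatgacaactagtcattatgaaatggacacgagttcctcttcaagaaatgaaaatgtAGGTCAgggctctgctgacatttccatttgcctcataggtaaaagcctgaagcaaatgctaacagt
Cd163l1: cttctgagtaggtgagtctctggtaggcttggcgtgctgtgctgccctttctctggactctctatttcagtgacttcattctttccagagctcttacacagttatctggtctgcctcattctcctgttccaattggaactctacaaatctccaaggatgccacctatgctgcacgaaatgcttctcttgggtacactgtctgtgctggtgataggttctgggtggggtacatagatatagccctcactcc
The half-site begins at -120 in Il17a, at -58 in Il17f, and at -229 and -66 in Il23r, counted from the start site. It is not in these windows of Cd163l1 and Il17rc. Of 32851 upstream windows of this length, 4607 (14.02%) hold it, and a match is a description of the letters only.

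The control library held 8038 barcodes and 214163620 UMIs (unique molecular identifiers, counts of captured RNA molecules). The K2-KO library held 7250 barcodes and 180774106 UMIs, and 13 barcode sequences occurred in both. After filters and removal of called doublets, 7530 and 6761 cells were kept, with medians of 22213 and 15987 UMIs. Fermt2, the targeted gene, stood at 38.8 CPM (a gene's UMIs over all UMIs of the class, scaled to 1000000) in control tumour cells and 17.8 CPM in knockout tumour cells. A 3' count can include transcripts of an edited gene, so this checks the labels only in part. Cells were sorted into classes by single genes: Cd3e for T cells (507 control and 824 knockout cells), Ncr1 without Cd3e for NK cells (110 and 404), Epcam for tumour cells (2799 and 1890), C1qa for macrophages (1407 and 1098), S100a8 for neutrophils (498 and 203), Col1a1 for fibroblasts (95 and 88), and Fscn1 for mature dendritic cells (78 and 63). The Epcam gate also takes normal gland epithelium. The Fscn1 gate did not hold mature dendritic cells alone: Cdh5, an endothelial gene, was seen in 15 of its 78 control cells and Krt8, an epithelial keratin gene, in 55, against 3 and 21 of the 63 knockout cells. They are called Fscn1-gated cells. Ratios are log2 of CPM, knockout over control, with exact 95% intervals. Every interval here reflects counting alone. How far tumours of 1 group differ from each other is not measured.

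Il17a RNA was concentrated in gamma-delta T cells, and far less of it was found in the knockout library. Gamma-delta T cells, those with both Cd3e and Trdc UMIs, held 796 Il17a UMIs in 117 control cells and 43 in 62 knockout cells, that is 1084 CPM (1010 to 1162) against 62.7 CPM (45.4 to 84.5). The control level was the higher one and the intervals did not overlap, with a log2 ratio of -4.11 (-4.59 to -3.67). An Il17a UMI was seen in 67 of 117 control cells (57.3%, Clopper-Pearson 95% interval 47.8 to 66.4) and in 5 of 62 knockout cells (8.06%, 2.67 to 17.8). The knockout cells were the more deeply read, with a median of 9060.5 UMIs per cell against 5574. With every cell thinned to 1000 UMIs, 35.9% of control and 4.84% of knockout gamma-delta cells still had one. In tumour cells, which should lack the gene, the share was 0.107% and 0.159% at medians of 36911 and 40942 UMIs. The gamma-delta class needed only 1 Trdc UMI. Trdc stood there at 1771 CPM in control and 783 CPM in knockout. Trac, the constant gene of the alpha receptor chain, was seen in 28 of 117 and 22 of 62 cells (23.9% and 35.5%, intervals that overlap). Other genes showed a different make-up of the class: Trdv4, a delta chain segment, was seen in 73 of 117 and 6 of 62 cells, and Cd27 in 19 and 36. Cells with an Il17a UMI held a median of 6 such UMIs (mean 11.9) in control and 9 (mean 8.6) in knockout. How far the make-up of the class enters the Il17a ratio was not tested. With at least 2 Trdc UMIs required, the Il17a log2 ratio was -3.997 (-4.47 to -3.55).

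Over all T cells, Il17a stood at 171.7 CPM in control and 13.5 CPM in knockout (log2 ratio -3.67, -3.96 to -3.39). 1 knockout cell gave 44.3% of that library's T cell UMIs of the gene, and without the top cell of each library the ratio was -4.35. Cells with an Il17a or Il17f UMI made up 72 of 507 control T cells (14.2%, 11.3 to 17.5) and 17 of 824 knockout T cells (2.06%, 1.21 to 3.28). Thinned to 1000 UMIs, the shares were 8.71% and 0.853%. Of the 72 control producers, 68 carried Trdc, 67 Cd163l1 and 50 Il23r. The 17 knockout producers were more mixed, with 5 that carried Trdc, 3 Cd163l1, 8 Il23r, 7 Cd4 and 3 Cd8a. Trac was seen in 18 of the 72 control and 14 of the 17 knockout producers. Tumour cells with such a UMI were 0.5002% in control and 0.794% in knockout without thinning.

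**Figure D1:**
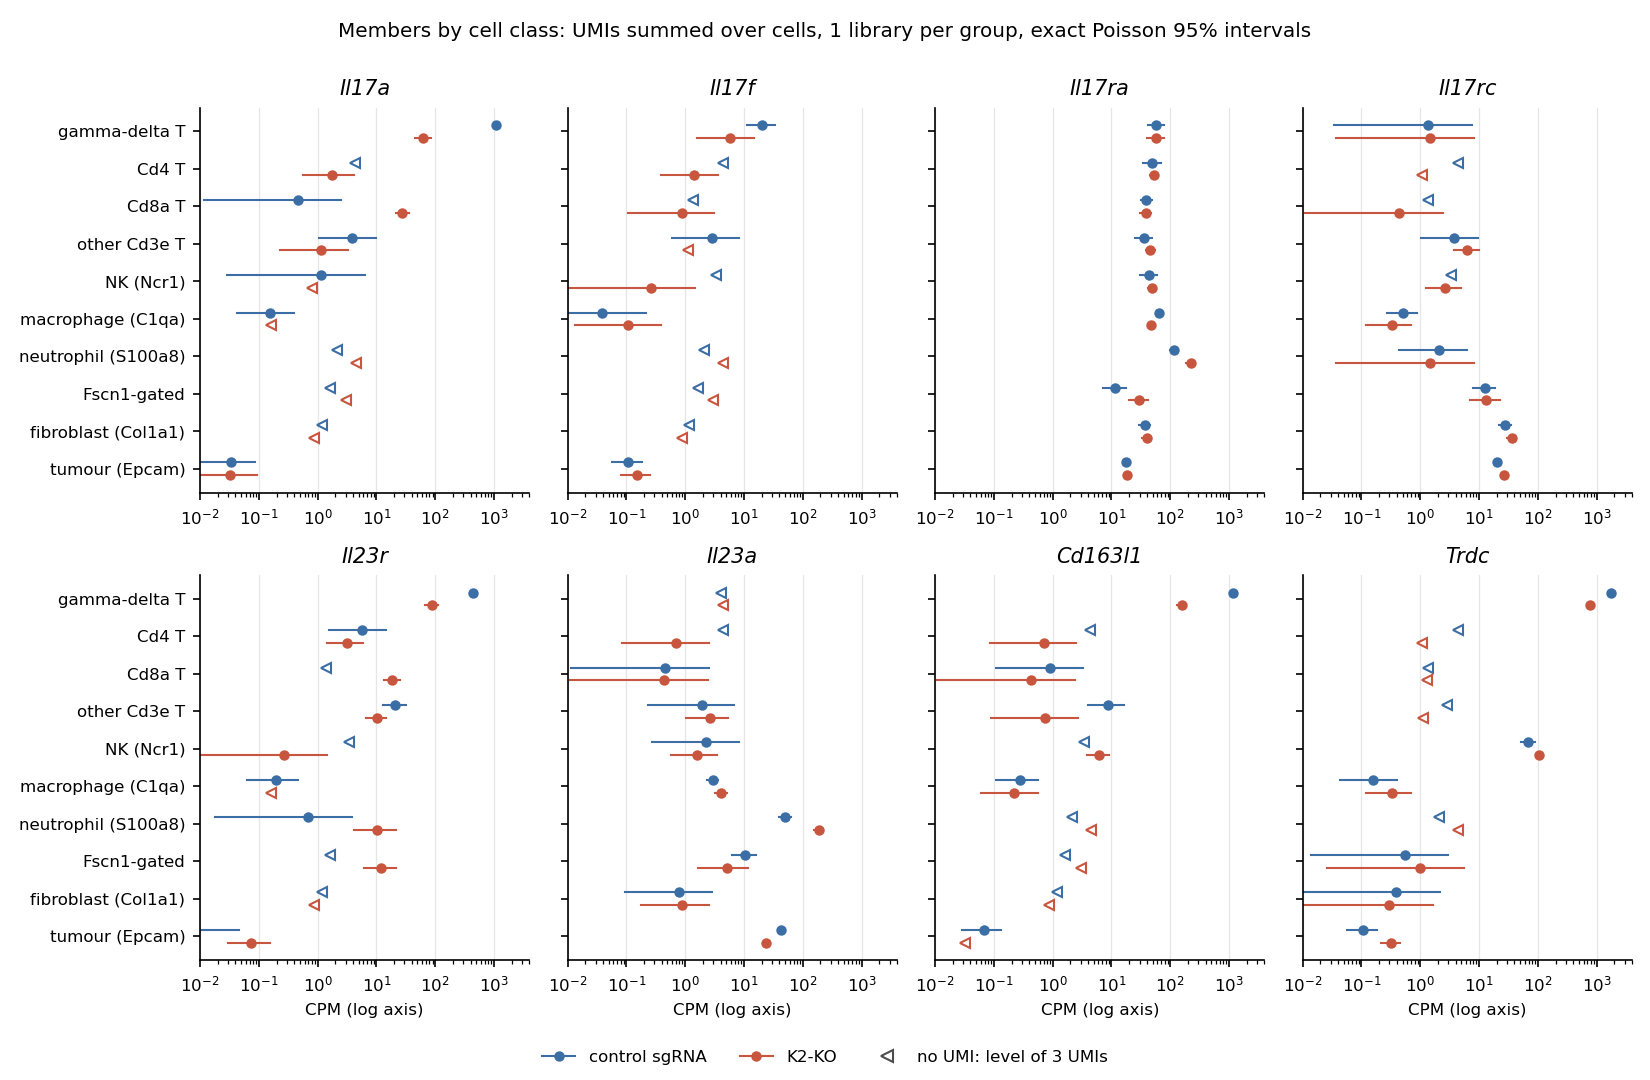
CPM of each member (log axis) in 10 cell classes, control sgRNA in blue and K2-KO in red, 1 library each, with exact Poisson 95% intervals cut off at the left edge. Open triangles stand at the level of 3 UMIs where a class had none. Il17a, Il23r and Cd163l1 are highest in gamma-delta T cells and lower there in K2-KO, Il17ra is present in every class, and Il17rc and Il23a are low or absent in most lymphocyte classes.

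The order of classes differed between the libraries for Il17a. In control, gamma-delta cells stood clear of every other class, the next being the other Cd3e cells at 3.81 CPM. These lacked Trdc and had both or neither of Cd4 and Cd8a. In knockout, Cd8a T cells came second at 27.8 CPM (21.4 to 35.5), against 0.457 CPM in control Cd8a cells. This level came from 2 of the 188 knockout Cd8a cells, and 79.7% of its 64 UMIs from 1 of them. That cell held 51 Il17a, 12 Il23r, 18 Maf and 6 Cd8a UMIs, no Trdc and no Cd163l1 UMI. Maf encodes a transcription factor of IL-17-producing lymphocytes. The other held 13 Il17a, 31 Il23r and 4 Maf UMIs. Knockout cells with at least 2 Il17a UMIs numbered 10 in all, of which 5 were gamma-delta, 2 Cd8a, 2 Cd4 and 1 a Cd3e cell with none of these markers, and 8 of the 10 carried Il23r. In control, 71 cells had at least 2 Il17a UMIs, and 69 of these carried Trdc.

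Il17f, the partner cytokine gene, was sparse. Gamma-delta cells held 15 control and 4 knockout UMIs, or 20.4 CPM (11.4 to 33.7) and 5.84 CPM (1.59 to 14.9), intervals that overlap. 1 cell gave 73.3% of the control UMIs and 1 cell 75.0% of the knockout UMIs, and the log2 ratio was -1.81 (-3.86 to -0.16). Counted as cells, 4 of 117 control and 2 of 62 knockout gamma-delta cells had Il17f. Over all T cells it stood at 3.86 CPM in control and 1.17 CPM in knockout (log2 ratio -1.72, -2.99 to -0.52). Over all kept cells there were 36 UMIs in 21 control cells and 31 in 25 knockout cells (log2 ratio 0.03, -0.71 to 0.77), of which 13 and 14 lay in tumour cells, the class used above as background for Il17a. Cells with both cytokines were 5 in control and 3 in knockout.

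Il23r, which lets these cells answer IL-23, stood at 441 CPM (395 to 492) in control and 87.5 CPM (66.8 to 113) in knockout gamma-delta cells. The control value was higher, with a log2 ratio of -2.33 (-2.76 to -1.93), and 65 of 117 against 13 of 62 cells carried a UMI. Of the control library's Il23r UMIs 80.4% lay in gamma-delta cells. Of the knockout library's UMIs 33.1% did, with 23.8% in Cd8a T cells, 14.9% in other Cd3e cells and 6.63% in Fscn1-gated cells. The Cd8a share came from the same 2 cells as the Il17a above. In other Cd3e cells 88.9% of the 27 knockout UMIs came from 1 cell.

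Cd163l1 marked the control gamma-delta cells more widely than the cytokine did. It stood at 1145 CPM (1069 to 1226) in control and 156 CPM (128 to 189) in knockout gamma-delta cells, a log2 ratio of -2.88 (-3.18 to -2.58). 96 of 117 control cells carried it, against 9 of 62 knockout cells. No control gamma-delta cell had Il17a or Il23r without Cd163l1: all 67 Il17a cells and all 65 Il23r cells carried it, and another 29 cells had Cd163l1 without Il17a. All 3 genes met in 48 of 117 control cells and in 3 of 62 knockout cells. None of the 3 was seen in 21 control cells (17.9%, 11.5 to 26.1) and in 45 knockout cells (72.6%, 59.8 to 83.1). In the knockout, all 5 Il17a cells had Il23r, while 2 of them lacked Cd163l1.

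**Figure D2:**
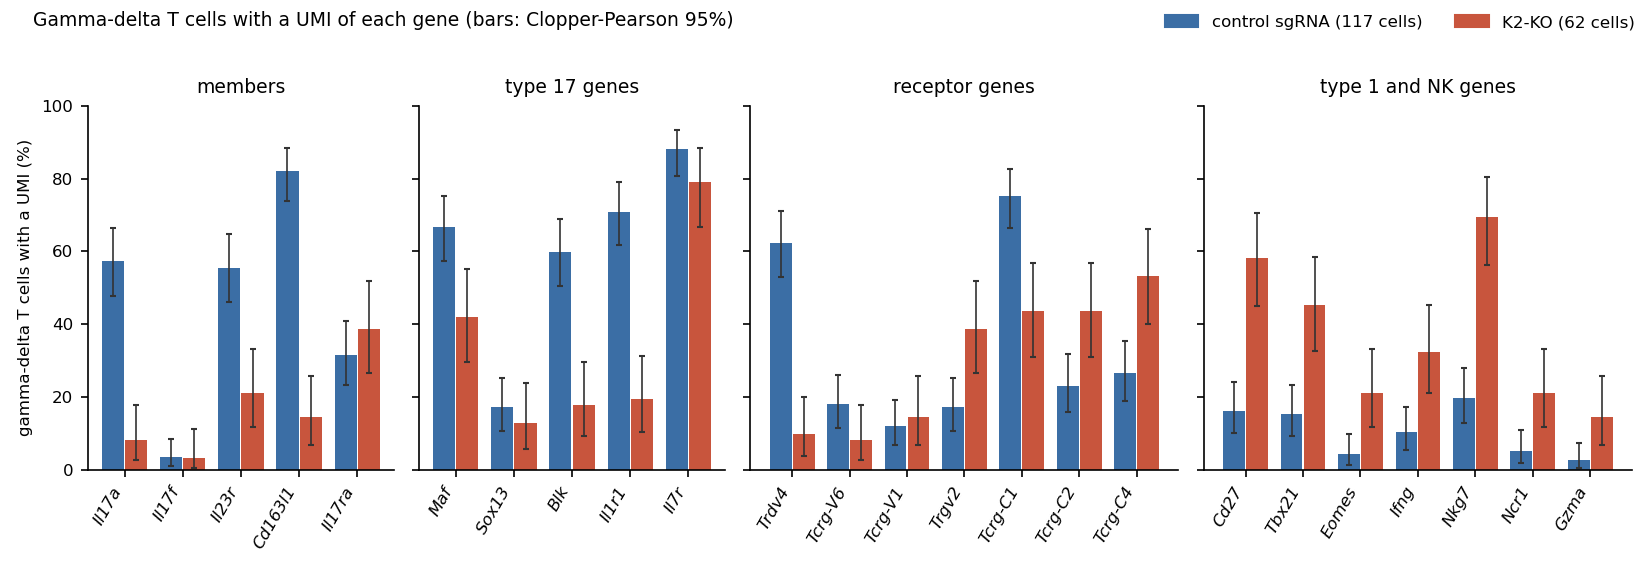
Share of gamma-delta T cells (%) with at least 1 UMI of each gene in control (117 cells, blue) and K2-KO (62 cells, red), with Clopper-Pearson 95% intervals. Cd163l1 was seen in 82.1% and 14.5% of cells and Cd27 in 16.2% and 58.1%, while the Il17ra intervals overlap.

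Trdc itself was at 279 CPM (264 to 294) over control T cells and 63.1 CPM (57.8 to 68.6) over knockout T cells (log2 ratio -2.14, -2.29 to -1.998). Gamma-delta cells were 117 of 507 control T cells (23.1%, 19.5 to 27.0) and 62 of 824 knockout T cells (7.52%, 5.82 to 9.54). Thinned to 1000 UMIs, 7.13% and 1.10% had both Cd3e and Trdc. These shares have the T cell total below them, and that total was larger in the knockout library (12.2% against 6.73% of kept cells). Of all kept cells, gamma-delta cells were 1.55% in control and 0.917% in knockout.

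Most knockout cells with a Trdc UMI were NK cells. Trdc was seen in 213 control and 319 knockout cells of any class. Of these, 118 control and 50 knockout cells had Cd3e without Ncr1, and 39 control and 203 knockout cells had Ncr1 without Cd3e. The cells with Ncr1 alone had a median of 1 Trdc UMI, while those with Cd3e alone had 10 in control and 7 in knockout. In NK cells Trdc stood at 68.8 CPM (52.6 to 88.4) in control and 105 CPM (94.9 to 116) in knockout, a log2 ratio of 0.61 (0.22 to 1.02), opposite in sign to T cells. Thinned to 1000 UMIs, the shares of NK cells with Trdc were 11.01% and 12.1%. None of the cells with Trdc and Ncr1 carried Il17a.

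**Figure D3:**
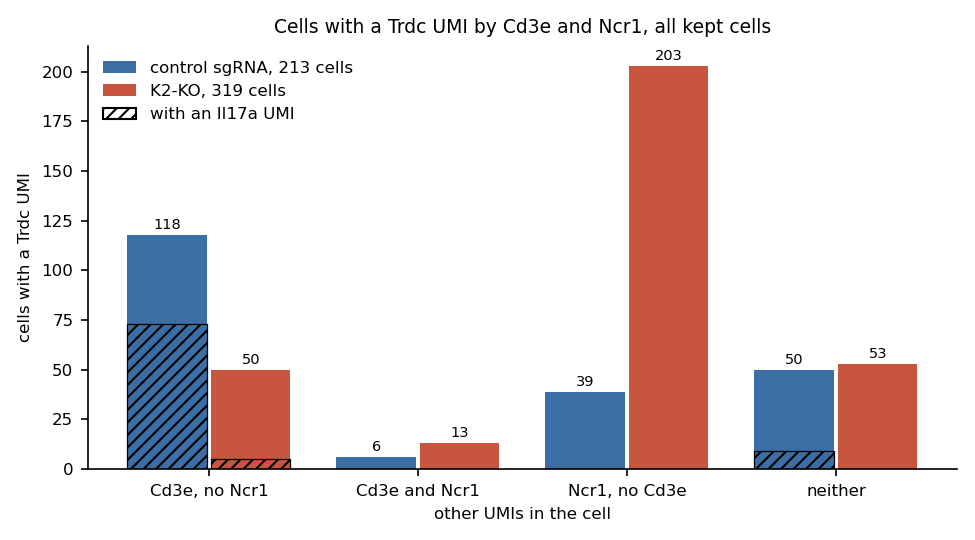
Number of kept cells with a Trdc UMI, split by whether Cd3e or Ncr1 was also seen, in control (213 cells, blue) and K2-KO (319 cells, red). Hatching marks cells with an Il17a UMI, 73 of 118 control and 5 of 50 knockout cells with Cd3e and no Ncr1.

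Most measured genes of a type 17 list were lower in gamma-delta T cells of the knockout library. Of 29 listed type 17 lymphocyte genes, 24 had at least 20 UMIs in gamma-delta cells. 20 of these were at least 1.5-fold lower and 2 at least 1.5-fold higher, with a median log2 ratio of -1.49. Among all 7043 genes measured there, 15.4% were lower and 16.5% higher by that fold, with a median of 0.05. The members Il17a, Il23r and Cd163l1 are on this list and were chosen on these libraries, and a count without them is not given. This and the other gene lists were also chosen with earlier results of these data known, so their counts are descriptions. Areg, which encodes the growth factor amphiregulin, was the lowest at 526 against 10.2 CPM (-5.69, -7.01 to -4.63, with 71.4% of 7 knockout UMIs in 1 cell), followed by Il17a and Cd163l1. Higher members were 5830411N06Rik, another gene of the scavenger receptor family of Cd163l1, at 4.09 against 86.1 CPM (4.40, 2.78 to 6.72), and Ahr, the aryl hydrocarbon receptor, at 55.8 against 121 CPM (1.12, 0.56 to 1.69). Stat3, the signal transducer below the IL-23 receptor, was at 616 against 770 CPM (0.32, 0.14 to 0.51).

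Over all T cells the same list had 28 measured genes, with 15 lower, 3 higher and a median of -0.95. Of all 12496 genes measured in T cells, 6.23% were lower and 12.2% higher. Gamma-delta cells are part of these T cells, 23.1% in control and 7.52% in knockout, so the 2 counts of this list are not separate results. Blk, which encodes a kinase of IL-17-producing gamma-delta cells, was among the lowest with Cd163l1 and Il17a, at 37.1 against 5.99 CPM (-2.63, -3.11 to -2.17). The 3 higher genes were Il22, a cytokine gene, at 0.858 against 4.70 CPM with 77.5% of its knockout UMIs in 1 cell, 5830411N06Rik at 3.002 against 10.6 CPM, and Ccr6, a homing receptor gene, at 3.22 against 7.40 CPM.

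Type 1 genes, those of cytotoxic and interferon-producing lymphocytes, went the other way in the gamma-delta class. Of 18 listed genes, 13 were higher, none was lower, and the median was 1.31, where 16.5% of all genes in the class were higher and 15.4% lower. Gzma, encoding granzyme A, was at 70.8 against 961 CPM (3.76, 3.35 to 4.20), with 80.8% of its control and 48.4% of its knockout UMIs in 1 cell. Ccl4, a chemokine gene, was at 61.3 against 331 CPM (2.43, 1.97 to 2.93), with 74.4% of the knockout UMIs in 1 cell. Xcl1, encoding the chemokine lymphotactin, was at 150 against 537 CPM (1.84, 1.53 to 2.16). Klrk1 (304 against 303 CPM, interval -0.28 to 0.28), Prf1 (0.02, -0.70 to 0.73) and Stat4 (0.27, 0.10 to 0.44) were the members with the lowest ratios. By cells, Cd27, a surface receptor of interferon-producing gamma-delta cells, was seen in 19 of 117 control and 36 of 62 knockout cells, and Tbx21, encoding the type 1 regulator T-bet, in 18 and 28. In control, Cd27 was seen in 4 of the 67 Il17a cells and 15 of the 50 others. Over all T cells the type 1 list did not show this direction, with 2 of 18 higher, 4 lower and a median of -0.29, against 12.2% higher and 6.23% lower among all genes. Gzma (-2.01, -2.11 to -1.92), Xcl1 (-0.82, -0.93 to -0.70) and Klrd1 (-0.74, -0.84 to -0.65) had the lowest ratios there and Eomes (1.18, 0.76 to 1.62), Cxcr3 (0.80, 0.50 to 1.10) and Ccl5 (0.57, 0.51 to 0.63) the highest.

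NK cell markers moved with this result. The summed level of 7 such markers in gamma-delta cells was 215 CPM in control and 1192 CPM in knockout, with 5 of 7 detected and Klra8 and Klra4 at 0 in both. An Ncr1 UMI was seen in 6 of 117 control and 13 of 62 knockout gamma-delta cells, none of them with Il17a. Without those cells, 111 and 49 remained, and the NK marker sum was 69.8 and 97.1 CPM. In them 19 of 24 type 17 genes were at least 1.5-fold lower and 12 of 17 type 1 genes higher. The share of all genes was not counted for this smaller class. In the full gamma-delta class 15.4% of all genes were lower and 16.5% higher. Il17a then stood at 1262 against 85.2 CPM (-3.89, -4.37 to -3.45), Il23r at 514 against 119 CPM (-2.11) and Cd163l1 at 1334 against 212 CPM (-2.65). This comparison was added after the values were seen.

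The receptor chains of the gamma-delta cells differed too. Trdv4 and Tcrg-V6 are the segments of the invariant receptor of many IL-17-producing cells. Trdv4 was at 331 against 35.0 CPM (-3.24, -3.91 to -2.63), in 73 of 117 control and 6 of 62 knockout cells. Tcrg-V6 was at 34.1 against 11.7 CPM (-1.54, -2.90 to -0.35), and the constant gene Tcrg-C1 at 388 against 169 CPM (-1.20, -1.52 to -0.88). Tcrg-C4 at 79.0 against 150 CPM (0.93, 0.45 to 1.42) and Tcrg-C2 at 61.3 against 108 CPM (0.82, 0.26 to 1.38) were higher in knockout, while for Trgv2 the interval held 0 (0.57, -0.07 to 1.23). Of 8 measured receptor genes 4 were at least 1.5-fold lower and 2 higher, a count that includes Trdc, which defined the class. Among all genes there 15.4% were lower and 16.5% higher, and 2 of 8 is near the latter share. Over all T cells 5 of 8 were lower and none higher (6.23% and 12.2% of all genes), from Trdv4 at -3.99 and Tcrg-V6 at -2.40 to Tcrg-V1 at -0.31 and Tcrg-C4 at 0.35. The gamma-delta cells are among these T cells, so this count is not a separate result. Whether reads were split between the constant genes was not tested, so their values are uncertain.

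**Figure D4:**
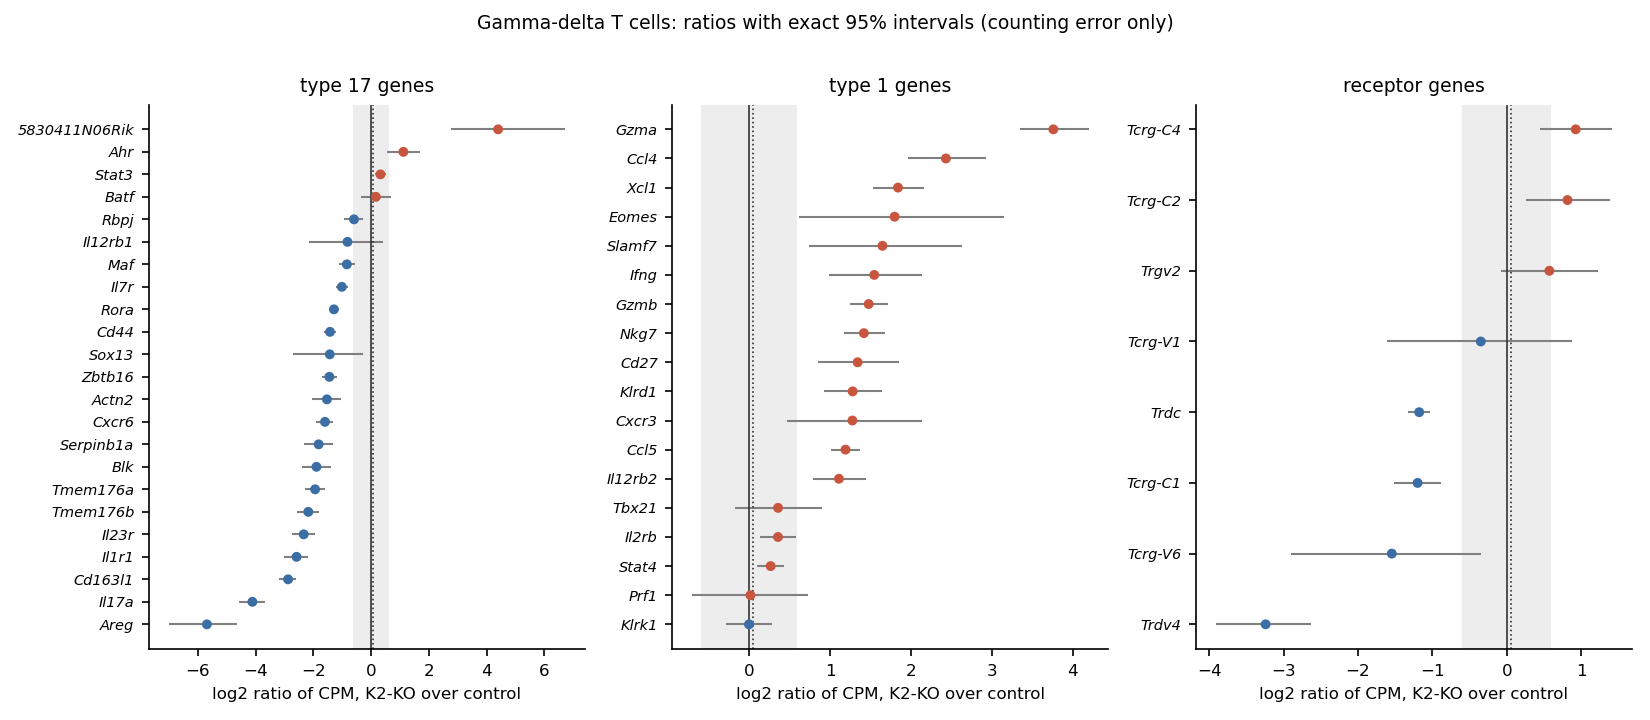
Log2 ratio of CPM (K2-KO over control) in gamma-delta T cells for type 17, type 1 and receptor genes with at least 20 UMIs in the class, with exact 95% intervals. Grey marks ratios within 1.5-fold and the dotted line the median of all genes (0.05). 1 measured type 17 gene is not drawn. Areg (-5.69) and Il17a (-4.11) lie farthest left, and 13 of 18 type 1 genes lie right of the grey band.

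The genes whose levels ran most like those of a member over 26 class by library profiles are given as a description. The profiles share 2 libraries and differ in depth, and 17813 genes were compared by Pearson correlation of log2(CPM + 10). Prr29 (r = 0.955), Il17f (0.9501), Gm9961 (0.946), Cd163l1 (0.946) and Lingo4 (0.943) were most like Il17a. Blk (0.977), Tcrg-C1 (0.959), Trdv4 (0.954), Aqp3 (0.9501) and Il17a (0.946) were most like Cd163l1. For Il23r they were Actn2 (0.938), Il17f (0.935), Gm9961 (0.9303), Il17a (0.923) and Tcrg-C1 (0.912). Prr29, Gm9961 and Lingo4 rest on 73, 90 and 67 UMIs in all. The genes that set 89 producers apart from 1242 other T cells were, beside Il17a and Il17f, which define them, Il23r, Trdv4, Cd163l1, Il1r1, Plekhg1, Blk, Prickle2 and Abi3bp. The ranking pools 72 control and 17 knockout producers, and the shares differed between them. Trdv4 was seen in 53 of the 72 control and 2 of the 17 knockout producers, Prickle2 in 59 and 2, Abi3bp in 47 and 5, Blk in 49 and 6, and Plekhg1 in 9 and 1. Il1r1, the receptor for IL-1, stood at 529 CPM in producers and 16.1 CPM in the other T cells, and was seen in 60 of 72 control and 7 of 17 knockout producers.

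Il17ra, the receptor chain shared by several IL-17 cytokines, was found in every class. Neutrophils were highest, at 117 CPM (99.7 to 136) in control and 221 CPM (187 to 260) in knockout. The neutrophil level was higher in knockout, with a log2 ratio of 0.92 (0.60 to 1.25) and a UMI in 25.7% and 47.3% of cells at similar median depths of 2559 and 2822 UMIs. Macrophages stood at 63.6 CPM (60.5 to 66.8) and 47.5 CPM (44.4 to 50.7), lower in knockout (-0.42, -0.54 to -0.30). From second to eighth place the neighbouring classes in the order overlapped in their intervals in both libraries. Gamma-delta cells held the chain at 57.2 and 56.9 CPM (-0.01, -0.67 to 0.66). Tumour cells were at 17.9 CPM (17.2 to 18.7) and 18.2 CPM (17.3 to 19.1), with a ratio of 0.02 (-0.07 to 0.11). This interval includes 0 and covers counting alone, so it does not bound the difference between the groups. Relative to the median of all genes in tumour cells, which was 0.13 above 0, the ratio was -0.11. As a mean of the cells' CPM it was 0.12, and both values lie outside the counting interval. Ccnl1, Atg3, Gripap1, Ddx3x and Apbb1ip had the profiles most like Il17ra (r from 0.907 to 0.928).

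Il17rc, the chain that IL-17A and IL-17F need beside IL-17RA, was high in fewer classes. Fibroblasts had 27.5 CPM (21.5 to 34.8) in control and 36.4 CPM (30.3 to 43.3) in knockout, and tumour cells had 19.98 CPM (19.2 to 20.8) and 26.3 CPM (25.2 to 27.3). These were the first and second classes in both libraries, and their intervals did not overlap. In tumour cells the knockout level was higher, with a log2 ratio of 0.39 (0.31 to 0.48), or 0.27 relative to the median gene. Cells with 5 or more UMIs were 1.14% of control and 4.97% of knockout tumour cells. Macrophages held 0.510 and 0.326 CPM and neutrophils 2.096 and 1.49 CPM, so the classes with the most Il17ra had little Il17rc RNA. Tumour cells with both chains made up 27.0% in control and 34.8% in knockout, and 28 of 95 and 38 of 88 fibroblasts had both. Thinned to 10000 UMIs, 2.84% and 4.11% of tumour cells had both. In neutrophils no cell of 498 and 203 had both. Their median depths were 2559 and 2822 UMIs, against 36911 and 40942 in tumour cells, so these shares cannot be compared.

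In tumour cells 9 of 11 IL-17 family ligand and receptor genes were measured. 3 were at least 1.5-fold higher, none was lower, and the median was 0.45. Of all 17271 genes measured there, 19.9% were higher and 5.95% lower. Il17b (0.85, -0.11 to 1.84), Il17rb (0.67, 0.01 to 1.33) and Il17c (0.61, -0.19 to 1.42) were the highest, each under 1 CPM in both libraries. Il17rd, encoding a receptor of the family, was at 2.098 against 1.49 CPM (-0.49, -0.80 to -0.19). Of 20 receptor signalling genes, 3 were lower and none higher, with a median of -0.02. Cebpb, a transcription factor gene of the IL-17 response, was at 425 against 101 CPM (-2.07, -2.10 to -2.04). Tnfaip3, which encodes the NF-kappaB brake A20, was at 165 against 77.0 CPM (-1.10, -1.14 to -1.06). Nfkbiz, encoding an NF-kappaB cofactor at IL-17 response genes, was at 244 against 145 CPM (-0.75, -0.78 to -0.72). Traf3 (0.55), Traf5 (0.48) and Tab3 (0.26), genes of adaptor proteins, had the highest ratios.

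Genes known as IL-17 targets were lower in knockout tumour cells in 15 of 24 cases and higher in 2, with a median of -0.97, where 5.95% of all genes were lower and 19.9% higher. Nfkbiz, Tnfaip3, Cebpd and Zc3h12a are on both this list and the receptor signalling list, so the counts of these lists are not separate results. Ccl2, a monocyte chemokine gene, was at 67.2 CPM in control and 2.66 CPM in knockout (-4.66, -4.85 to -4.48). Mmp13, encoding a collagenase, was at 18.2 against 1.60 CPM (-3.51, -3.76 to -3.27). S100a9, a neutrophil calprotectin gene, was at 5.22 against 1.18 CPM (-2.14, -2.45 to -1.85), with 26.6% of its control UMIs in 1 cell. The higher genes were Saa3, an acute-phase gene, at 1.46 against 4.01 CPM (1.46, 1.20 to 1.73), with 69.5% of its knockout UMIs in 1 cell, and Ccl20, the ligand gene of Ccr6, with 7 and 13 UMIs (1.25, -0.18 to 2.81). Il19 was at 0.183 against 0.213 CPM. In the same cells the sum of 7 neutrophil markers, S100a9 among them, was 8.67 and 3.64 CPM, with 6 of 7 detected and Ly6g at 0 in both, and that of 7 macrophage markers was 38.4 and 59.4 CPM, with all 7 detected. The part of these cells in the result was not tested, nor was which signal acts on the listed genes.

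**Figure D5:**
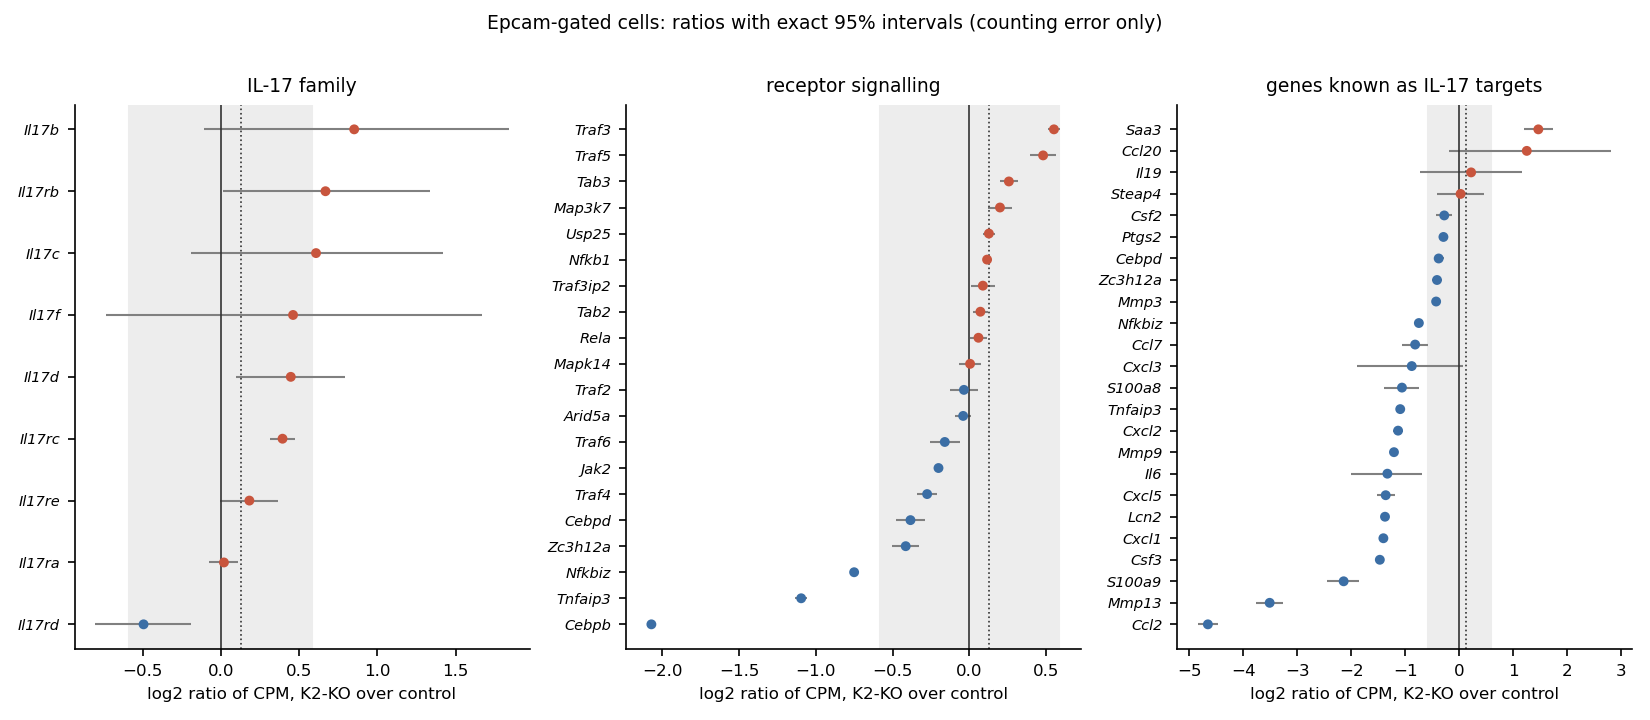
Log2 ratio of CPM (K2-KO over control) in Epcam-gated cells for the IL-17 family, receptor signalling genes and genes known as IL-17 targets, with exact 95% intervals. Grey marks ratios within 1.5-fold and the dotted line the median of all genes (0.13). Il17ra sits at 0.02 and Il17rc at 0.39, and 15 of 24 target genes lie left of the grey band.

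Il23a RNA was found mainly in tumour cells, which held 84.1% of its UMIs in the control and 75.4% in the knockout library. Tumour cells had 5198 and 2216 UMIs, or 43.3 CPM (42.1 to 44.5) and 23.6 CPM (22.6 to 24.6). The knockout level was lower, with a log2 ratio of -0.88 (-0.95 to -0.80), or -1.004 relative to the median gene. In control 62.2% of tumour cells had a UMI and in knockout 46.6%, and 10.8% and 5.66% held 5 or more. Thinned to 10000 UMIs, 30.1% and 17.6% had one. The tenth of tumour cells with the most Il23a held 44.9% and 51.9% of its UMIs. B230208H11Rik (r = 0.925), Id1 (0.907), Lamb3 (0.897), Sfxn5 (0.889) and Cdc42bpg (0.888) had the profiles most like it.

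Il12b, whose product must pair with that of Il23a to make IL-23, was seen in few of those cells. Only 6 of 2799 tumour cells had it in control, and 3 of 1890 in knockout. Its UMIs, all in these few cells, stood at 1.25 CPM (1.06 to 1.47) in control and 0.043 CPM (0.012 to 0.109) in knockout. Over all kept cells, 2209 control and 1170 knockout cells had Il23a, 33 and 41 had Il12b, and 3 in each library had both. Neutrophils reached the tumour cells' Il23a level, with 49.6 CPM (38.7 to 62.6) in control, and exceeded it in knockout with 186 CPM (155 to 221). The neutrophil level was higher in knockout, with a log2 ratio of 1.90 (1.47 to 2.35), in 26 of 498 and 27 of 203 cells.

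In Fscn1-gated cells Il23a stood at 10.3 CPM (6.20 to 16.1) in control and 5.05 CPM (1.64 to 11.8) in knockout. The intervals overlap and the log2 ratio of -1.03 (-2.80 to 0.44) includes 0, so a difference was not detectable at 19 and 5 UMIs. Among those cells with a Ccr7 UMI, a marker of mature dendritic cells, there were 0 UMIs in 13 control cells and 2 in 39 knockout cells. Endothelial markers summed to 1168 and 283 CPM in the whole class, with all 5 detected, and epithelial markers to 2585 and 1087 CPM, with all 7 detected. Their part in the Il23a values was not tested.

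Other cytokine genes of the pathway were read in macrophages and Fscn1-gated cells. In macrophages, 4 of 8 measured IL-23 and IL-12 family genes were higher and none lower, with a median of 0.57. Of all 13899 genes measured in macrophages, 10.4% were higher and 3.43% lower. Il12b was at 0.942 against 5.60 CPM (2.57, 1.92 to 3.28), with 50% and 80.6% of its UMIs in 1 cell. Il27, encoding a subunit of IL-27, was at 4.79 against 9.19 CPM (0.94, 0.60 to 1.29), and Il27ra had 15 and 19 UMIs (0.81, -0.24 to 1.89). Il6st (-0.17), Ebi3 (-0.02) and Il12rb2 (0.08) had the lowest ratios. Il23a was at 2.94 and 4.02 CPM (0.45, -0.03 to 0.93). In Fscn1-gated cells 3 of 5 were higher and 1 lower, where 19.7% of all 9672 genes were higher and 29.1% lower with a median of -0.16. Ebi3 was at 3.25 against 46.5 CPM (3.84, 2.61 to 5.36), Il12b at 39.6 against 174 CPM (2.14, 1.73 to 2.55, with 63.0% of the control UMIs in 1 cell), Il12rb2 at 47.7 against 109 CPM (1.19, 0.77 to 1.62) and Il6st at 69.9 against 81.9 CPM (0.23, -0.19 to 0.64). The make-up of this class differed: cells with Ccr7 were 13 of 78 in control and 39 of 63 in knockout, and the summed level of 7 mature dendritic markers was 1263 and 5496 CPM, with all 7 detected. Among the Ccr7 cells, Il12b stood at 243 CPM (191 to 306) in control and 285 CPM (244 to 331) in knockout, intervals that overlap, in 5 of 13 and 11 of 39 cells. These 5 were all the control cells of the class with Il12b, so the 63.0% from 1 cell holds here too. Endothelial markers in the Ccr7 cells summed to 1487 CPM in control and 38.1 CPM in knockout, with 5 and 2 of 5 detected. Cdh5 was seen in 1 of the 13 control cells.

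Of the cytokines that drive type 17 cells, 8 of 10 were measured in macrophages, with 2 higher, 1 lower and a median of 0.02 (10.4% and 3.43% of all genes were higher and lower). Il23a and Il12b are on this list and on the IL-23 and IL-12 family list above, so the counts of these lists are not separate results. Il1b, which sustains IL-17 production together with IL-23, was at 1833 against 1489 CPM (-0.30, -0.32 to -0.28), Il1a at 164 against 132 CPM (-0.31, -0.38 to -0.24) and Tgfb3 at 40.9 against 26.1 CPM (-0.65, -0.81 to -0.49). Tgfb2 was at 0.706 against 1.96 CPM (1.47, 0.62 to 2.37). In Fscn1-gated cells 3 of 8 were higher and 3 lower, with a median of -0.39, where 19.7% of all genes were higher and 29.1% lower. Il6 was at 3.79 against 18.2 CPM (2.26, 0.93 to 3.76) and Il1b at 131 against 453 CPM (1.79, 1.56 to 2.02), while Il1a (-1.53, -3.27 to -0.14) and Tgfb2 (-1.24, -2.996 to 0.20) were at the other end with Il23a.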

How the data were processed

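RNA of single cells was read from 2 droplet libraries, 1 per group. The authors deposited UMI counts, whole numbers per gene and barcode. The submitters' processing notes name Cell Ranger 2.1.1 and mm10, but version 6.0.1 stands in the header of the matrix. Barcodes ending in 1 were taken as control and those ending in 2 as knockout from the sample numbers in the labels, which is the sole basis of this match.

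Barcodes with at least 500 UMIs, 200 genes and at most 20% mitochondrial UMIs were kept, and doublets called with Scrublet in scanpy 1.11.5 were removed (217 of 7747 and 201 of 6962). Classes needed at least 1 UMI of Cd3e, or of Ncr1 with Cd3e at 0, or at least 2 UMIs and a CPM minimum in the cell of Epcam (100), C1qa (300), S100a8 (1000), Col1a1 (300) or Fscn1 (300). Cells that passed several gates, or none, were set aside. T cells were split by Trdc, Cd4 and Cd8a. UMIs were summed per class and library. Intervals (95%) are Poisson for CPM, conditional binomial for ratios and Clopper-Pearson for shares. With 1 library per group no test was possible and no p-value is given.

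The members and gene lists were chosen with earlier results of these data known. All members are named, and of each list the 3 measured genes (at least 20 UMIs) with the highest and the 3 with the lowest ratio. The 5 genes most like a member and the 10 that mark producers were ranked by script. Other genes, named for cell shares, were chosen after their values were seen. The ratio calculation was tested on simulated data. Alternatives were other cell filters, gates, scalings and thinning. Leaving Ncr1 cells out of the gamma-delta class was added after the values were seen. Software was matplotlib 3.10.9, pandas 2.3.3, scipy 1.17.1 and numpy 2.4.6 under Python 3.11.15. 1 gene of the type 17 list is counted in the list but not reported here.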

Additional observations from a re-analysis of the deposited data

How the results depend on the processing

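With 1 library per group, the intervals cover counting error and no tumour was replicated, so a left-out replicate could not be tried. No paired analysis was possible because each group has 1 library. Over 16 results and 134 alternative values, 116 stayed within the counting interval or within 1.5 times the count, 18 moved beyond it and 0 of the differences called changed sign. The log2 ratio of Il17a in T cells was -4.35 without the top cell of each library and -4.64 as a mean of the cells' CPM. Il17ra in tumour cells was -0.11 relative to the median gene and 0.12 as a mean of the cells' CPM, so its sign depends on the scaling. Il17rc in tumour cells was 0.27 relative to the median gene. The log2 ratio of the producer share was -4.70 with cells thinned to 500 UMIs, where 2 of 824 knockout cells remained, and that of the gamma-delta share was -2.70 with cells thinned to 1000 UMIs, against -2.78 and -1.62 without thinning. Il23a in Fscn1-gated cells ranged from -2.17 to -0.10. With a Ccr7 UMI also required there it gave no value, because the control cells had no UMI. The cause of these shifts was not tested.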

Other observations

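Some member RNA lay in cells that no single gate took. In control, 621 cells with Ptprc RNA (the leukocyte gene encoding CD45) and no gate gene held 67 Il17a UMIs in 8 cells, 178 Cd163l1 UMIs, 169 Trdc UMIs and 35 Il23r UMIs. The 1169 knockout cells of this kind held 1 Il17a, 1 Cd163l1, 44 Trdc and 6 Il23r UMIs. Control cells that passed several gates held 55 Il17a UMIs in 6 of 136 cells, and the 167 knockout cells of this kind held none. Of 50 control cells with Trdc and neither Cd3e nor Ncr1, 9 had Il17a and 17 Cd163l1, against 0 and 1 of 53 knockout cells. Over all kept cells, gated or not, Il17a stood at 4.60 CPM (4.31 to 4.90) in control and 0.696 CPM (0.576 to 0.833) in knockout, a log2 ratio of -2.72 (-3.01 to -2.45).

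Cd163l1 was also seen in knockout NK cells, with 23 UMIs in 5 of 404 cells, against 0 UMIs in 110 control NK cells. By cells the shares were 1.24% (0.403 to 2.86) in knockout and 0% (0 to 3.30) in control, intervals that overlap.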
